A study of Mus musculus with 33 samples.

Results

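The integrins and adhesion receptors described here were 10 genes, Itgae, Itgb1, Itgb7, Itga4, Itgal, Itgb2, Itgav, Itgb8, Cd44 and Selplg, out of 31054 counted features. The rule that defines them uses gene names, matched through Ensembl identifiers, and no measured value. Integrins are pairs of one alpha and one beta subunit that span the membrane and hold T cells to vessel walls, to matrix and to other cells. A subunit can have several partners, so the level of one transcript does not give the amount of a pair at the surface. In regulatory T cells (Tregs), which carry the transcription factor Foxp3 and restrain immune responses, these receptors are known for guiding cells into tissues, and the pair of Itgav and Itgb8 is known for releasing active TGF-beta from its latent complex.

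The study asked how the profiles of CD127hi Tregs and of Tregs from tolerated grafts differed from those of other Tregs and of other immune cells. All cells came from DEREG mice, C57BL/6 animals in which the Foxp3 promoter drives a diphtheria toxin receptor and an enhanced green fluorescent protein (EGFP). Tolerant mice carried 4000 islet equivalents of porcine neonatal islet cell clusters under the renal capsule and were studied on day 100. They had received repeated doses of the anti-CD154 antibody MR-1 (500 µg each) and a single dose of CTLA4-Fc (500 µg). Naive mice had neither graft nor treatment, and there were 3 libraries in each of 11 groups, 33 in all. From the spleen (SP) came CD45+CD4- cells and CD4+ T cells without GFP, each from naive and from tolerant mice, naive Tregs, and the CD127-/lo and CD127hi Tregs of tolerant mice. The graft gave 1 Treg group, and the graft-draining lymph node (DLN) gave naive, CD127-/lo and CD127hi Tregs. The DLN/naive Tregs came from the kidney lymph node of naive mice. Tregs and CD4+ T cells were gated on CD4, GFP and CD127, and CD45+CD4- cells on CD45 after CD4+ cells had been taken out with beads, so none of the 10 genes was used in sorting. By the methods the tolerant mice and the naive mice that gave spleens were male, and the naive mice that gave lymph nodes were female.

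Totals on genes were 2550698 to 4615283 counts in the 24 spleen and graft libraries and 844039 to 1935323 in the 9 DLN libraries, so that 3 counts stood for 0.637 to 1.18 CPM in the former and 1.63 to 3.11 CPM in the latter. The DLN libraries were also the only ones run on a MiSeq instead of a NextSeq 500, so lymph node and sequencer cannot be told apart. All levels are CPM, counts scaled to a common library total, with TMM factors that correct for differences in library composition. Foxp3 lay between 166 and 672 CPM in every Treg library and at 8.20 CPM or less in every other library. EGFP was at 0 in the 6 CD4+ T cell libraries. Il7r, which encodes CD127, followed the sort labels in the spleen, at 1236, 1082 and 1198 CPM in SP/CD127hi Tregs and 270, 303 and 360 CPM in SP/CD127-/lo Tregs. In the DLN it did not, at 635, 476 and 678 CPM in the libraries labelled DLN/CD127hi and 265, 784 and 516 CPM in those labelled DLN/CD127-/lo, where replicate 2 was above all DLN/CD127hi libraries. Sex did not follow the methods in 1 library either. Xist, the RNA of the silenced X chromosome, was at 405 and 459 CPM in DLN/naive replicates 1 and 2 but at 1.24 CPM in replicate 3, beside 0 to 5.41 CPM in the 30 libraries of the other groups. The summed Y-linked genes Ddx3y, Uty, Eif2s3y and Kdm5d were at 3.55, 16.1 and 504 CPM in these DLN/naive libraries and at 507 to 1294 CPM in the 30 others. Comparisons with DLN/naive Tregs are therefore in part male against female, which cannot be told apart from the other differences between those groups, and values without the library labelled DLN/naive replicate 3 are given with them. By the methods each library was a pool of mice, and the naive mice were too few for the libraries of a group to come from separate animals, so p-values measure the spread between libraries, which may in part be technical. The tolerant mice, from more than 1 transplant experiment, were also too few for each tolerant group to have its own animals. The same holds for the naive mice that gave the spleen groups. These groups therefore shared mice, while the model treats them as independent, and the labels do not tie mice to libraries. In bulk RNA, fewer cells of a type and less RNA per cell cannot be told apart.

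On the GRCm38 build, Itgae (ENSMUSG00000005947) covers chr11:73090583-73147446, Itgb8 (ENSMUSG00000025321) covers chr12:119158022-119238802, and Itgav (ENSMUSG00000027087) covers chr2:83724397-83806916. The other genes lie at chr8:128685654-128733200 (Itgb1), chr15:102215995-102231944 (Itgb7), chr2:79255426-79333123 (Itga4), chr7:127296260-127335138 (Itgal), chr10:77530252-77565708 (Itgb2), chr2:102811141-102901665 (Cd44) and chr5:113818536-113832644 (Selplg). Counts were summed over all exons of a gene and over both strands. Exons of Itga4 overlap those of Cerkl on the opposite strand, which had 4673 counts against 34967 for Itga4 over all libraries, and reads from the shared stretch cannot be told apart. Haspin lies within Itgae, but their exons do not overlap.

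Levels of different genes were compared per kilobase of exon. The subunits of the ICAM receptor, Itgal and Itgb2, together with Itgb1 and Itgb7, the shared beta subunits, ranked within the upper 5 of the 10 genes in every T cell group, and Itgb8, Itgav and Itgae were mostly the least abundant. In SP/CD127hi Tregs, the means were 101 CPM per kb for Itgal, 98.6 for Itgb1, 85.5 for Itgb7 and 77.5 for Itgb2. In the same libraries Itgae reached 40.4 CPM per kb, while Itgb8 had 16.6 and Itgav 14.3. In naive CD4+ T cells Itgae was the lowest of the 10 at 0.0976 CPM per kb and Itgb8 the next at 2.32, against 85.9 for Itgb1, the highest. The place of Selplg depended on the length used: over its longest annotated transcript (1855 bases) instead of its exon union (4272 bases), it was the highest of the 10 in SP/CD127hi Tregs, graft Tregs and all 4 groups without Foxp3.

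**Figure D1:**
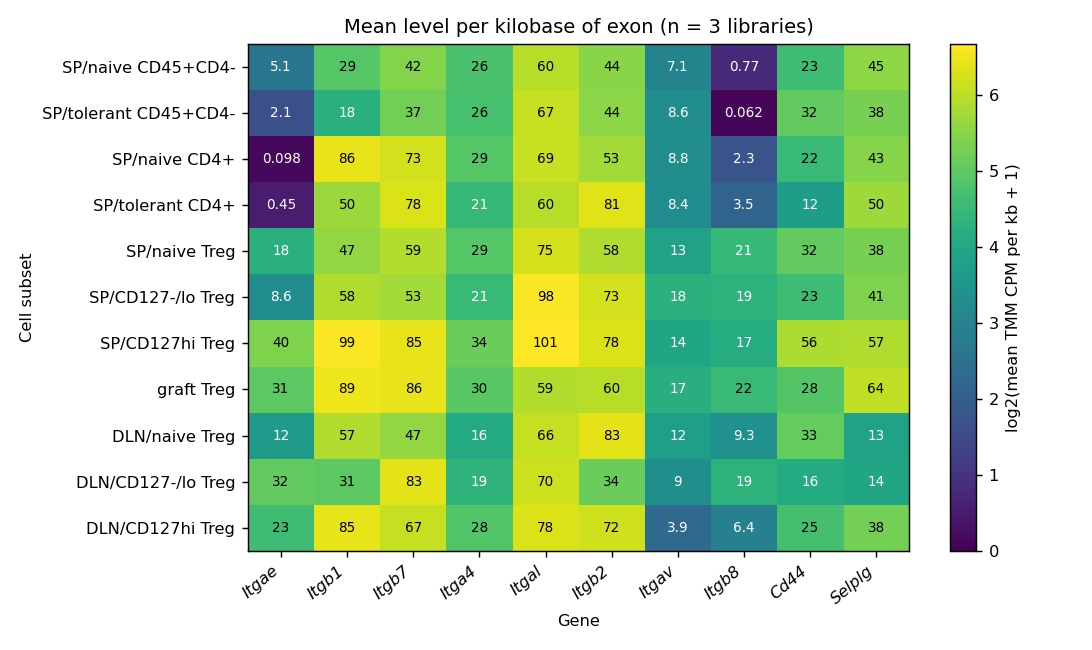
Heat map of the mean TMM-scaled CPM per kilobase of exon (colour and printed values) of the 10 genes (columns) in the 11 groups (rows), with 3 libraries per group. Itgae and Itgb8 were the lowest in CD4+ T cells and CD45+CD4- cells, while Itgal, Itgb2 and Itgb7 had high values throughout.

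Itgae and Itgb8 varied far more between groups than the other 8 genes. The highest group mean was 414 times the lowest for Itgae and 356 times the lowest for Itgb8. For the other genes this ratio lay between 1.71 (Itgal) and 5.58 (Itgb1).

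Itgae encodes the alpha E subunit (CD103), which pairs with Itgb7 and binds E-cadherin on epithelial cells. In CD4+ T cells its CPM in the 3 replicates was 0, 0.950 and 0.392 in naive mice and 0.912, 2.74 and 2.58 in tolerant mice, from 0 to 11 counts per library. In Tregs it was 59.7, 137 and 48.7 in SP/naive, 22.6, 69.7 and 25.5 in SP/CD127-/lo, 115, 194 and 247 in SP/CD127hi, and 112, 178 and 134 in graft Tregs. All 12 of these Treg libraries were above all 6 CD4+ T cell libraries, and the SP/CD127hi and graft libraries were all above those of SP/CD127-/lo Tregs. The DLN libraries scattered widely, at 30.5, 123 and 5.58 CPM in DLN/naive, 331, 59.7 and 54.8 in DLN/CD127-/lo and 81.8, 3.15 and 232 in DLN/CD127hi Tregs, and the 3 DLN groups overlapped one another. CD45+CD4- cells lay between the CD4+ T cells and the Tregs in their means, with 20.8, 45.3 and 4.51 CPM in naive and 9.67, 6.05 and 12.9 CPM in tolerant mice.

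Ordered by their means, the groups ran from SP/CD127hi Tregs (185 ± 66.7 CPM, SD, n = 3) through DLN/CD127-/lo, graft, DLN/CD127hi, SP/naive and DLN/naive Tregs to SP/CD127-/lo Tregs (39.3 ± 26.4), then naive and tolerant CD45+CD4- cells, and last tolerant (2.08 ± 1.01) and naive (0.447 ± 0.477) CD4+ T cells. Of the 10 steps in this order, the libraries of neighbouring groups failed to overlap in 1, between tolerant CD45+CD4- cells and tolerant CD4+ T cells.

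Itgb8 encodes the beta 8 subunit, whose only known partner is Itgav. Its CPM was 37.4, 31.4 and 8.23 in naive and 58.6, 21.2 and 35.0 in tolerant CD4+ T cells. It was 397, 200 and 98.5 in SP/naive, 147, 281 and 199 in SP/CD127-/lo, 145, 266 and 141 in SP/CD127hi and 36.6, 376 and 319 in graft Tregs. All 9 splenic Treg libraries lay above all 6 CD4+ T cell libraries, and graft replicate 1 alone of the graft libraries lay among the latter. In the DLN the values were 30.5, 88.3 and 190 CPM (naive), 477, 61.7 and 82.6 CPM (CD127-/lo) and 72.0, 53.6 and 88.1 CPM (CD127hi), again with overlap of all 3 groups. CD45+CD4- cells had the least, with 0, 12.1 and 13.5 CPM in naive and 1.11, 0.275 and 0.679 CPM in tolerant mice. By group means graft Tregs came first (244 ± 182 CPM) and tolerant CD45+CD4- cells last (0.686 ± 0.415), and every one of the 10 pairs of neighbours overlapped.

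**Figure D2:**
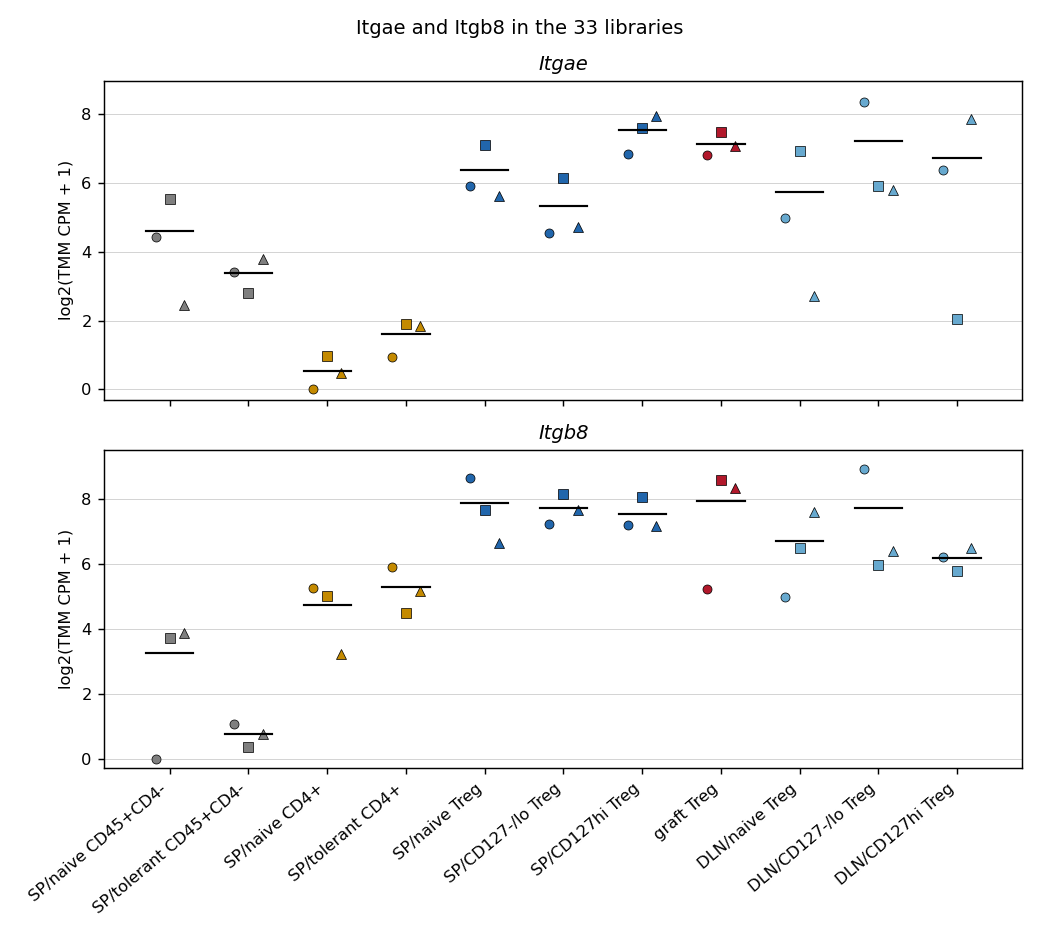
TMM-scaled expression of Itgae and Itgb8 (y axis, log2 of CPM + 1) in each of the 33 libraries by group (x axis). Circles, squares and triangles are replicates 1, 2 and 3, and bars mark the log2 of the group mean CPM + 1. The 9 splenic Treg libraries sit above the 6 CD4+ T cell libraries for both genes, at 22.6 to 247 against 0 to 2.74 CPM for Itgae and 98.5 to 397 against 8.23 to 58.6 CPM for Itgb8.

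To learn which of these receptors set Tregs apart from CD4+ T cells without Foxp3, 7 comparisons were tested with edgeR's quasi-likelihood method, with adjustment over all 25347 genes tested. Itgae was higher in Tregs in 7 of 7 comparisons and Itgb8 in 5 of 7, and none of the other 8 genes was called in this model, although Cd44 was in others. That made 12 calls out of 70 pairs of gene and comparison. DESeq2 made 11 of these 70 calls and the likelihood ratio test 9. The share of all genes called was 0.264% for SP/naive, 0.422% for SP/CD127hi, 0.469% for SP/CD127-/lo and 0.619% for graft Tregs against naive CD4+ T cells, 0.324% and 0.284% for SP/CD127hi and SP/CD127-/lo Tregs against tolerant CD4+ T cells, and 1.83% for the 3 splenic Treg groups against both CD4+ groups. Counting higher genes only, these shares were 0.158%, 0.26%, 0.276%, 0.359%, 0.193%, 0.17% and 0.86%. The median log2 difference of the 10 genes lay between 0.13 and 0.76, beside medians of -0.255 to 0 over all genes. These comparisons share control libraries and are not independent of each other.

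For Itgae, the log2 fold change over naive CD4+ T cells was 7.37 (SE 1.17, adjusted p = 3.02e-06) in SP/naive, 6.31 (SE 1.13, adjusted p = 5.34e-05) in SP/CD127-/lo, 8.55 (SE 1.22, adjusted p = 6.41e-08) in SP/CD127hi and 8.16 (SE 1.2, adjusted p = 1.55e-07) in graft Tregs. With only 4 reads in the 3 naive CD4+ libraries together, the size of these ratios is loosely set: the mean level in SP/CD127hi Tregs was 406 times the pooled rate of the naive CD4+ libraries (reads summed over summed totals, not the mean of the 3 CPM values), with a 95% counting interval of 158 to 1489, and in SP/CD127-/lo Tregs 86.0 times (33.6 to 316). Such intervals cover counting error only. Tolerant CD4+ T cells held 25 reads, and against them the ratio was 91.0 (61.6 to 141) for SP/CD127hi and 19.3 (13.1 to 29.8) for SP/CD127-/lo Tregs, with log2 fold changes of 6.45 (SE 1.07, adjusted p = 1.49e-05) and 4.22 (SE 0.98, adjusted p = 0.011). The call against tolerant CD4+ T cells in SP/CD127-/lo Tregs was lost without any 1 of the tolerant CD4+ libraries (adjusted p = 0.207, 0.0572 and 0.0694 without replicates 1, 2 and 3) or without SP/CD127-/lo replicate 2 (0.147). With ComBat-Seq, which treats the sequencer as a batch, neither SP/CD127-/lo call held (0.116 against naive and 0.409 against tolerant CD4+ T cells), and the latter was also lost when genes needed 10 counts or more in 3 or more libraries (0.133). All spleen and graft libraries were run on the same sequencer. A call among them that was lost with ComBat-Seq, here or below, therefore does not show dependence on the sequencer. Over all 3 splenic Treg groups against both CD4+ groups, Itgae was higher by 6.36 (SE 0.76, adjusted p = 8.25e-12), and this call held under each of the 9 settings and without each of the 15 libraries.

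For Itgb8, the log2 fold change over naive CD4+ T cells was 3.17 (SE 0.76, adjusted p = 0.0197) in SP/naive, 3.02 (SE 0.75, adjusted p = 0.0229) in SP/CD127-/lo, 2.84 (SE 0.75, adjusted p = 0.0448) in SP/CD127hi and 3.24 (SE 0.76, adjusted p = 0.0084) in graft Tregs. Over all 3 splenic Treg groups against both CD4+ groups, the log2 fold change was 2.72 (SE 0.50, adjusted p = 5.83e-05), a call that held without each of the 15 libraries and was lost with ComBat-Seq (adjusted p = 0.0664). Against tolerant CD4+ T cells alone it did not pass the test, at 2.26 for SP/CD127hi (adjusted p = 0.219) and 2.45 for SP/CD127-/lo Tregs (adjusted p = 0.178), although all 6 of those Treg libraries exceeded the 3 tolerant CD4+ libraries. With the model limited to the 6 libraries compared, both passed, at 2.28 (adjusted p = 3.81e-05) and 2.48 (adjusted p = 2.64e-07). The single-group calls rested on few libraries. Without naive CD4+ replicate 3, the lowest of its group, the adjusted p was 0.195, 0.197, 0.253 and 0.0922 for SP/naive, SP/CD127-/lo, SP/CD127hi and graft Tregs. The SP/naive call was also lost without SP/naive replicate 1 (0.262), the SP/CD127-/lo call without its replicate 2 (0.125) or naive CD4+ replicate 2 (0.0508), the SP/CD127hi call without its replicate 2 (0.182) or naive CD4+ replicate 1 (0.0697) or 2 (0.0832), and the graft call without graft replicate 2 (0.0744). With ComBat-Seq or when genes needed 10 counts or more in 3 or more libraries, none of these 4 calls held (adjusted p of 0.218 to 0.412 and 0.117 to 0.257). The likelihood ratio test lost the 3 splenic calls (0.109 to 0.151), and DESeq2 that of SP/CD127hi Tregs (0.0527). Without the 9 DLN libraries, a setting chosen after the data were seen, the SP/naive and SP/CD127hi calls were lost (0.0520 and 0.0548). Without graft replicate 1, which stood apart from the other graft libraries, the graft value was 3.76 (adjusted p = 0.00134).

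Of other cells that carry these genes, CD8 T cell markers (Cd8a and Cd8b1) summed to 0 to 31.4 CPM in the splenic Treg libraries and 11.7 to 33.5 CPM in the CD4+ libraries, and Cd8a was at 0 in every SP/CD127-/lo and SP/CD127hi library. Dendritic cell markers summed to 0.586 to 59.1 CPM in the splenic Treg libraries and 16.2 to 72.1 CPM in the CD4+ libraries. Macrophage and monocyte markers ran from 0 to 29.2 CPM in CD4+ T cells and from 8.81 to 302 CPM in splenic Tregs, and 3 of these 8 markers were called higher. C1qb, C1qc and Fcgr1 of that list were at 0 in every tolerant CD4+ library. The part of any of these cell types in the Itgae and Itgb8 values, and in the other differences of splenic Tregs from CD4+ T cells given here, was not tested.

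Neither partner subunit was called in these 7 comparisons. Itgb7, the beta partner of Itgae and also of Itga4, had 215, 186 and 203 CPM in naive CD4+ T cells and 189, 221 and 235 CPM in tolerant CD4+ T cells. In Tregs its levels were of the same order, at 116, 175 and 198 CPM in SP/naive, 155, 128 and 157 CPM in SP/CD127-/lo, 255, 193 and 263 CPM in SP/CD127hi and 278, 125 and 314 CPM in graft Tregs. The libraries of CD4+ T cells therefore lay inside the Treg range. Per kilobase, the mean of Itgae over Itgb7 was 0.00134 in naive and 0.00584 in tolerant CD4+ T cells, 0.304 in SP/naive, 0.162 in SP/CD127-/lo, 0.473 in SP/CD127hi and 0.357 in graft Tregs. Itgae exceeded Itgb7 in 1 of 33 libraries, DLN/CD127hi replicate 3, at 1.01.

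Itgav, the alpha partner of Itgb8 and also of Itgb1, had 57.4, 164 and 61.1 CPM in naive and 53.6, 149 and 68.0 CPM in tolerant CD4+ T cells. It had 191, 140 and 95 CPM in SP/naive, 133, 149 and 303 CPM in SP/CD127-/lo, 158, 87.2 and 217 CPM in SP/CD127hi and 131, 238 and 194 CPM in graft Tregs, so CD4+ replicates 2 overlapped the Tregs. Per kilobase, Itgb8 over Itgav was 0.265 in naive and 0.413 in tolerant CD4+ T cells and 0.109 and 0.00719 in naive and tolerant CD45+CD4- cells. In Tregs of the spleen and graft it was near or above 1, at 1.59 in SP/naive, 1.04 in SP/CD127-/lo, 1.16 in SP/CD127hi and 1.26 in graft Tregs, with 3, 2, 1 and 2 of 3 libraries over 1. Over the longest annotated transcripts the SP/CD127-/lo value was 0.898 and the SP/CD127hi value 1.0. These are ratios of transcripts, and they do not measure pairs of subunits.

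**Figure D3:**
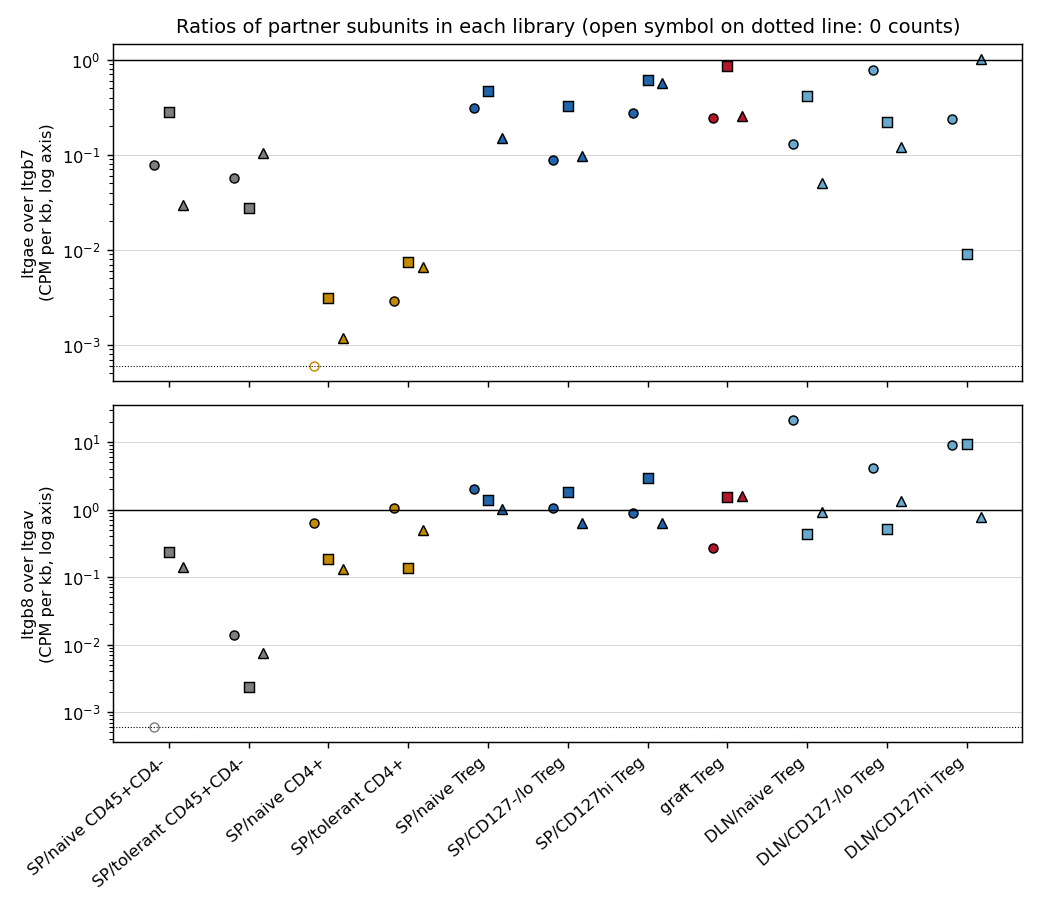
Ratios per kilobase of exon of Itgae over Itgb7 and of Itgb8 over Itgav (y axes, log scale) in each library by group (x axis), with circles, squares and triangles for replicates 1, 2 and 3, an open symbol on the dotted line for a library with 0 counts of the upper gene and a line at a ratio of 1. Itgae stayed below Itgb7 in 32 of 33 libraries, while Itgb8 exceeded Itgav in 8 of 12 spleen and graft Treg libraries and in 1 of 12 libraries without Foxp3.

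Among the 3 splenic Treg groups, none of the 10 genes passed edgeR's test in any of 3 comparisons. Of the 30 pairs of gene and comparison, 3 had an unadjusted p below 0.05 (5.76% of pairs over all genes did), and DESeq2 and the likelihood ratio test called 0. The share of all genes called was 0.0907% for SP/CD127hi against SP/CD127-/lo, 0.0197% for SP/CD127hi against SP/naive and 0.071% for SP/CD127-/lo against SP/naive Tregs, so few genes of any kind separated these groups in this model. The median log2 difference of the 10 genes was 0.58, 0.48 and -0.03 in these comparisons, beside medians over all genes of 0.03, 0 and -2.66e-05.

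The largest of the 30 differences was that of Itgae, with a log2 fold change of 2.24 (SE 0.88, adjusted p = 0.507) in SP/CD127hi over SP/CD127-/lo Tregs. The 3 CD127hi libraries were all higher, and when the model held nothing but these 6 libraries the value was 2.20 (adjusted p = 0.0030). Dendritic cell markers, which include a type of cell known to carry Itgae, summed to 9.34 to 59.1 CPM in SP/CD127hi and 0.586 to 2.83 CPM in SP/CD127-/lo Tregs, and their part in the Itgae values was not tested. Flt3, Xcr1 and Siglech of that list were at 0 in every SP/CD127-/lo library.

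Cd44, the hyaluronan receptor and a marker of activated and memory T cells, was at 310, 399 and 435 CPM in SP/CD127hi Tregs. It was at 149, 131 and 191 CPM in SP/CD127-/lo, 207, 271 and 180 CPM in SP/naive and 256, 225 and 93.8 CPM in graft Tregs. The SP/CD127hi libraries thus lay above all others of the spleen and the graft. The log2 difference was 1.28 from SP/CD127-/lo Tregs (adjusted p = 0.654). Itgb1, the common beta 1 subunit, had 513, 210 and 484 CPM in SP/CD127hi and 202, 166 and 209 CPM in SP/naive Tregs, a log2 difference of 1.07 (adjusted p = 0.917) with no overlap of the libraries. Macrophage and monocyte markers, of cells that also carry both genes, summed to 145 to 246 CPM in SP/CD127hi, 28.8 to 123 CPM in SP/naive and 8.81 to 302 CPM in SP/CD127-/lo Tregs, so they were apart from the second group and overlapped the third, and their part in these values was not tested. Between SP/CD127hi and SP/CD127-/lo Tregs, T cell markers (4041 to 4776 and 7076 to 10589 CPM) and dendritic cell markers (9.34 to 59.1 and 0.586 to 2.83 CPM) were apart, and their part was not tested either. With ComBat-Seq the Cd44 difference was 3.06 and the Itgb1 difference 2.61, both short of the threshold (adjusted p = 0.402 and 0.692). The libraries compared shared a sequencer, so these shifts do not correct a sequencer difference between the groups. Counted by libraries alone, SP/CD127hi did not overlap SP/CD127-/lo Tregs for Itgae, Itgb7 and Cd44, each higher in CD127hi, which 10.6% of all genes also did in either direction. For SP/CD127hi against SP/naive Tregs it was Itgb1, Itgb2 and Cd44 (6.77% of all genes), and for SP/CD127-/lo against SP/naive Tregs Itgb2, with 188, 283 and 193 over 177, 184 and 168 CPM (8.97% of all genes).

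Graft Tregs were compared with each splenic Treg group and with all 3 together. None of the 10 genes was called in 40 pairs of gene and comparison by edgeR, DESeq2 or the likelihood ratio test, and 1 of 40 had an unadjusted p below 0.05 (8.34% over all genes). The share of all genes called was 0.13% against SP/naive, 0.103% against SP/CD127hi, 0.0829% against SP/CD127-/lo and 1.44% against all 3. That 1 pair was Itgae, higher by a log2 value of 1.85 than in SP/CD127-/lo Tregs (adjusted p = 0.558), or 1.99 without graft replicate 1. Dendritic cell markers summed to 20.6 to 26.5 CPM in graft and 0.586 to 2.83 CPM in SP/CD127-/lo Tregs, and their part in this Itgae value too was not tested. Itgae in graft Tregs overlapped SP/CD127hi Tregs, with means of 141 ± 33.3 and 185 ± 66.7 CPM (SD, n = 3).

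Selplg encodes the ligand for P-selectin that lets cells roll on vessel walls. Graft Tregs had 207, 236 and 383 CPM of it, beside 164, 140 and 186 CPM in SP/naive, 187, 175 and 159 CPM in SP/CD127-/lo and 176, 204 and 352 CPM in SP/CD127hi Tregs. The graft libraries did not overlap those of SP/naive Tregs (8.15% of all genes did not) or SP/CD127-/lo Tregs, where Itgae too did not overlap (7.2%), but they did overlap SP/CD127hi Tregs. Cd44 was lower in every graft library than in every SP/CD127hi library (8.52% of all genes did not overlap). No member separated the graft from all 9 splenic Treg libraries (1.46%). Graft replicate 1 stood apart from replicates 2 and 3 in Itgb1, with 684 against 209 and 198 CPM, and in Itgb8, with 36.6 against 376 and 319 CPM. Kidney epithelium markers summed to 23.8 to 897 CPM in the graft libraries and to 28.9 CPM or less in every other library, and their part in the graft values was not tested.

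**Figure D4:**
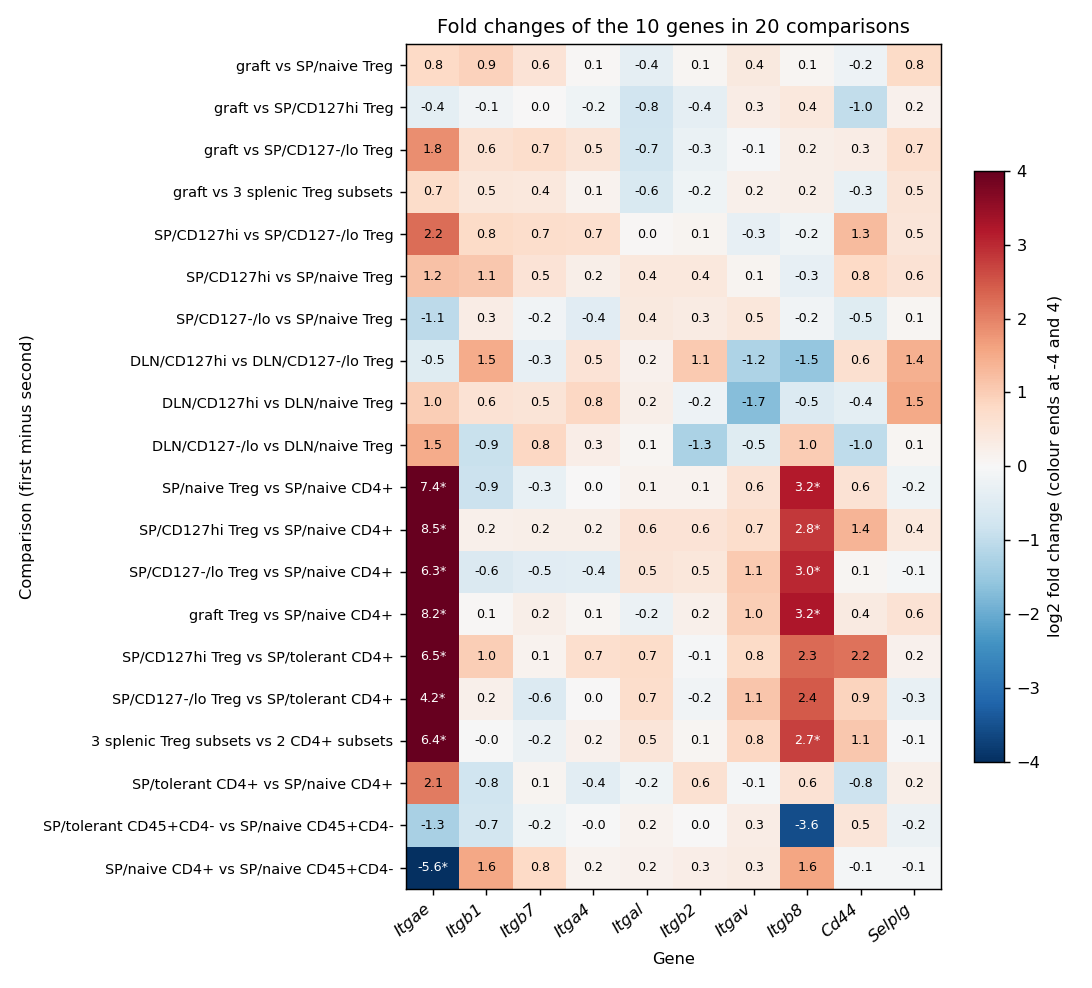
Heat map of log2 fold changes (colour, with ends at -4 and 4) of the 10 genes (columns) in the 20 comparisons (rows), from edgeR over all 33 libraries, with an asterisk for an adjusted p below 0.05. The 13 asterisks lie on Itgae and Itgb8, in the comparisons of Tregs with CD4+ T cells and, for Itgae, of CD4+ T cells with CD45+CD4- cells.

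In the DLN, the 3 Treg groups gave 0 calls in 30 pairs by edgeR, DESeq2 and the likelihood ratio test, with 6 unadjusted p-values below 0.05 (9.39% over all genes). The share of all genes called was 0.418% for DLN/CD127hi against DLN/CD127-/lo, 0.951% for DLN/CD127hi against DLN/naive and 0.355% for DLN/CD127-/lo against DLN/naive Tregs. The median log2 difference over all genes was -0.0132, 0.396 and 0.583 in these comparisons, and that of the 10 genes lay between 0.09 and 0.38. Differences from DLN/naive Tregs are therefore to be read beside these medians and not beside 0. The spread was wide: the median coefficient of variation over the groups was larger in the DLN than in the spleen and graft for all 10 genes, for example 1.10 against 0.538 for Itgae and 0.834 against 0.242 for Selplg. Macrophage and monocyte markers reached 602 to 891 CPM in DLN/CD127hi, 102 to 746 CPM in DLN/CD127-/lo and 2.80 to 429 CPM in DLN/naive Tregs. B cell markers reached 142 to 443 CPM in DLN/CD127hi and 79.0 to 195 CPM in DLN/CD127-/lo against 5.58 to 39.1 CPM in DLN/naive Tregs, so that both tolerant groups were apart from the naive one. The part of either cell type in the DLN values was not tested.

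Itgb1 was the 1 gene whose DLN/CD127hi libraries (195, 351 and 494 CPM) did not overlap those of DLN/CD127-/lo (90.5, 162 and 121 CPM), as was true of 5.37% of all genes. Its log2 difference was 1.48 (adjusted p = 0.238), or 1.77 without DLN/CD127-/lo replicate 2. In the 2 comparisons with DLN/naive Tregs, none of the 10 genes separated the libraries (7.68% and 6.34% of all genes did). Single libraries decided several values there. Itgav was at 7.79, 5.52 and 111 CPM in DLN/CD127hi and 1.42, 198 and 203 CPM in DLN/naive Tregs, a log2 difference of -1.70 (adjusted p = 0.334) that became -4.39 (adjusted p = 0.00075) without DLN/CD127hi replicate 3. Itgb2 was at 258, 28.9 and 27.8 CPM in DLN/CD127-/lo and 182, 366 and 212 CPM in DLN/naive Tregs, a log2 difference of -1.26 (adjusted p = 0.487) that became -3.10 (adjusted p = 0.00576) without DLN/CD127-/lo replicate 1 and -0.83 without replicate 2. Without DLN/naive replicate 3, the library whose Xist and Y-linked genes went against the other DLN/naive libraries, none of the 10 genes was called in either comparison. Selplg moved most in DLN/CD127hi against DLN/naive Tregs, from 1.5 (adjusted p = 0.278) to 2.42 (adjusted p = 0.0569), and the sign changed for Itgal and Itgb8 there and for Itga4 and Itgal in DLN/CD127-/lo against DLN/naive Tregs. With RLE in place of TMM scaling, the median of all genes moved by 0.20 in DLN/CD127hi and by 0.13 in DLN/CD127-/lo against DLN/naive Tregs, on the log2 scale.

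Whether the CD127hi or CD127-/lo difference was larger in the spleen than in the DLN was tested as an interaction. No gene of the 10 passed, and neither did any in the interaction of tolerance with cell type (CD4+ against CD45+CD4-): 0 of 30 pairs were called by edgeR, DESeq2 or the likelihood ratio test, and 5 had an unadjusted p below 0.05 (7.7% over all genes). The share of all genes called was 0.118%, 0.138% and 0.0473%. Itgae had the largest of the spleen and DLN values, with a log2 difference of 2.73 for CD127hi minus CD127-/lo (adjusted p = 0.547) and -2.55 for CD127-/lo minus naive (adjusted p = 0.464). Single DLN libraries moved both. Without DLN/CD127-/lo replicate 1 they were 1.36 (adjusted p = 0.907) and -1.23 (adjusted p = 0.887), the smallest values with 1 library left out, and the largest were 4.07 without DLN/CD127hi replicate 3 and -4.10 without DLN/naive replicate 2. Without DLN/naive replicate 3 the latter was -2.01 (adjusted p = 0.594). The Itgb2 value for CD127-/lo minus naive, 1.59 (adjusted p = 0.480), was 3.43 (adjusted p = 0.0315) without DLN/CD127-/lo replicate 1. For tolerance the Itgb8 value, 4.13 (adjusted p = 0.191), was 4.70 (adjusted p = 0.0260) without naive CD45+CD4- replicate 1.

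The other receptors were broadly shared. Itga4, the alpha 4 subunit, which binds Vcam1 with Itgb1 and the mucosal addressin with Itgb7, had group means between 220 ± 146 CPM (DLN/naive) and 476 ± 140 CPM (SP/CD127hi). Itgal, the alpha subunit that pairs with Itgb2 to bind ICAMs and arrest rolling cells, lay between 386 ± 149 CPM (graft) and 661 ± 259 CPM (SP/CD127hi). For both, all 10 neighbouring pairs of groups overlapped, as they did for Itgb7, Itgb2, Itgav and Selplg. Per kilobase, Itgal over Itgb2 stayed within 0.748 to 2.04 over the group means, and Itga4 over Itgb7 within 0.228 to 0.686.

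**Figure D5:**
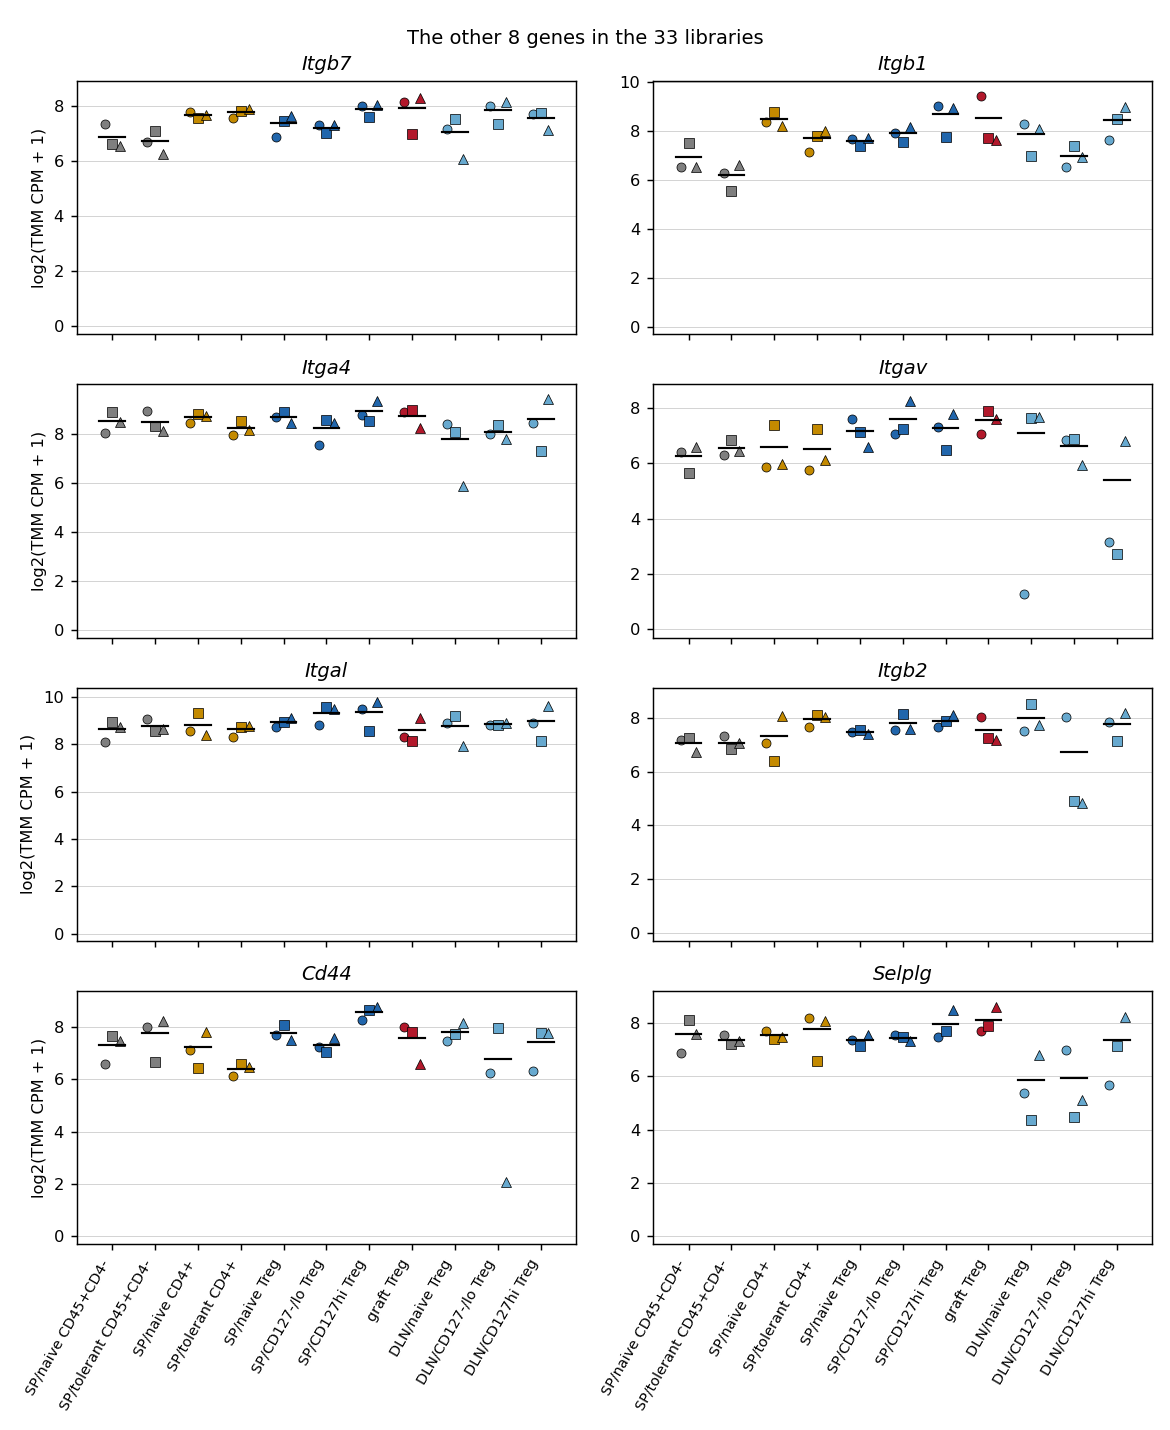
TMM-scaled expression of the 8 other genes (y axis, log2 of CPM + 1) in each library by group (x axis), with circles, squares and triangles for replicates 1, 2 and 3 and bars at the log2 of the group mean CPM + 1. The groups overlapped for most genes, and SP/CD127hi Tregs had the highest Cd44 libraries, at 310 to 435 CPM.

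Cd44 in SP/CD127hi Tregs was also above both CD4+ groups, which had 138, 85.2 and 222 CPM in naive and 68.8, 95.9 and 87.3 CPM in tolerant mice. Against tolerant CD4+ T cells its log2 difference of 2.18 had an adjusted p of 0.0800 in edgeR, and it passed with no filter on low counts (0.0472), with replicate numbers as a block (0.0419), with the model limited to these 6 libraries (9.62e-08) and without the 9 DLN libraries (0.00573), the last chosen after the data were seen. With the model limited to the compared libraries, Cd44 also passed for SP/CD127hi Tregs against naive CD4+ T cells (1.36, adjusted p = 0.0395) and for the 3 splenic Treg groups against both CD4+ groups (1.10, adjusted p = 0.00151), and the latter passed without the 9 DLN libraries (1.09, adjusted p = 0.0202). Macrophage and monocyte markers moved with these differences as well, at 145 to 246 CPM in SP/CD127hi Tregs, 0 to 4.43 CPM in naive and 15.5 to 29.2 CPM in tolerant CD4+ T cells, and their part in the Cd44 values was not tested. In both comparisons with CD4+ T cells, the libraries that did not overlap were those of Itgae, Itgb8 and Cd44 (11.6% of all genes against naive and 13.2% against tolerant CD4+ T cells). SP/naive Tregs were apart from naive CD4+ T cells for Itgae and Itgb8, which were higher, and Itgb1, which was lower (10% of all genes), and graft Tregs for Itgae (9.82%). SP/CD127-/lo Tregs did not overlap naive CD4+ T cells for Itgae and Itgb8, which were higher, and for Itgb1 and Itgb7, which were lower (12% of all genes). Against tolerant CD4+ T cells, their libraries were apart for Itgae, Itgal, Itgb8 and Cd44 (higher) and Itgb7 (lower), beside 11.3% of all genes. Over all 9 splenic Treg and 6 CD4+ libraries, Itgae and Itgb8 alone did not overlap, where 0.998% of all genes did not.

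Tolerance itself was examined in the cells without Foxp3. Between tolerant and naive mice, 0 of 20 pairs of gene and comparison were called by edgeR, DESeq2 or the likelihood ratio test, with 2 unadjusted p-values below 0.05 (5.73% over all genes). The share of all genes called was 0.107% in CD4+ T cells and 0.0355% in CD45+CD4- cells. Itgb1 was at 138, 221 and 253 CPM in tolerant and 326, 433 and 293 CPM in naive CD4+ T cells, the 1 gene of the 10 whose libraries did not overlap there (9.63% of all genes). Macrophage and monocyte markers, at 0 to 4.43 CPM in naive and 15.5 to 29.2 CPM in tolerant CD4+ T cells, and NK cell markers, at 19.7 to 51.6 and 6.18 to 19.1 CPM, did not overlap there either, and their part in the Itgb1 values was not tested. In CD45+CD4- cells none of the 10 was apart (6.79%). The lower Itgb8 in tolerant CD45+CD4- cells, by a log2 difference of -3.55 (adjusted p = 0.0804), became -4.14 (adjusted p = 0.0042) without naive CD45+CD4- replicate 1, which was at 0. The tolerant libraries held 4, 1 and 2 counts of it and the other naive libraries 37 and 42 counts. Markers of several cell types moved with this comparison without overlap. T cell markers summed to 1487 to 2552 CPM in naive and 862 to 1164 CPM in tolerant CD45+CD4- cells, CD8 T cell markers to 370 to 760 and 225 to 325 CPM, and Treg markers to 169 to 258 and 54.3 to 132 CPM. B cell markers went the other way, at 2784 to 4472 CPM in naive and 4743 to 6158 CPM in tolerant cells. So did dendritic cell markers, at 11.6 to 55.4 and 72.0 to 111 CPM, and platelet and erythroid markers, at 0 to 3.86 and 11.3 to 113 CPM. Neutrophil markers overlapped, with medians of 396 and 2423 CPM. The part of these cell types in the Itgb8 value was not tested.

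Naive CD4+ T cells were last compared with naive CD45+CD4- cells, which hold B cells, CD8 T cells and myeloid cells together. Itgae was lower in CD4+ T cells by a log2 value of -5.57 (SE 1.10, adjusted p = 0.00026), the 1 call of the 10 genes, which DESeq2 and the likelihood ratio test also made, where 1.04% of all genes were called and 0.659% were lower. It was lost when the model was limited to the 6 libraries compared (adjusted p = 0.0876). CD8 T cell markers summed to 370 to 760 CPM in naive CD45+CD4- cells and 15.4 to 28.8 CPM in naive CD4+ T cells, and their part in this difference was not tested. Itgb1 and Itgb7 were higher and Itgae lower in CD4+ T cells without overlap of the libraries (12.9% of all genes). The log2 difference of Itgb1 was 1.56 (adjusted p = 0.167).

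Across the 24 spleen and graft libraries, the genes whose log2 CPM followed each member most closely were sought among 8626 genes with a mean of at least 10 CPM. Closest to Itgae were Pim1 (Pearson r = 0.957), Il2rb (0.894), which encodes a chain of the IL-2 receptor, and Ahnak (0.864). Closest to Itgb8 were Nt5e (0.923), which encodes CD73, Maf (0.917) and Tox (0.915). For the other 8 genes the highest r lay between 0.724 (Zmiz1 with Cd44) and 0.813 (Rabgap1l with Itgav). Between subunits that pair, r was 0.0795 for Itgae and Itgb7, 0.534 for Itgav and Itgb8, 0.364 for Itga4 and Itgb1, 0.0690 for Itga4 and Itgb7, 0.315 for Itgav and Itgb1 and 0.114 for Itgal and Itgb2, while Itgb1 and Itgb7, which do not pair with each other, had the highest r of all 45 pairs (0.663). These libraries share groups, so the correlations describe the groups as much as the libraries.

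Other genes of adhesion were read from 5 lists: further integrin subunits, intracellular integrin activators, selectins with the enzymes that make their ligands, ligands with partners of latent TGF-beta, and other adhesion receptors of T cells. In the comparison of the 3 splenic Treg groups with both CD4+ groups, 0 of 18 further integrin subunits and 0 of 19 activators were called. Of the selectin list 0 of 14 were higher and 2 lower, of the ligand list 1 of 12 was higher and 1 lower, and of the other receptors 2 of 20 were higher and 0 lower, where 1.83% of all genes were called and 0.86% were higher. The list medians in log2 were 0.09, 0.01, 0.06, -0.50 and 0.02, beside -0.08 over all genes. The further integrin subunits were called in none of the 20 comparisons.

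Lrrc32 encodes GARP, which holds latent TGF-beta at the surface of Tregs, where the pair of Itgav and Itgb8 can act on it. It was at 26.9 to 90.3 CPM in the 9 splenic Treg libraries and 0 to 0.656 CPM in the 6 CD4+ libraries, with no overlap. The ratio of means was 205, with a 95% counting interval of 94.2 to 559 from 6 reads in CD4+ T cells, and the log2 fold change 7.52 (adjusted p = 4.94e-09). Spp1, which encodes osteopontin, a ligand of Cd44 and of Itgav pairs, went the other way. It had no read in any of the 9 splenic Treg libraries and 210, 14.9 and 0.392 CPM in naive and 46.5, 42.4 and 64.4 CPM in tolerant CD4+ T cells, so it was at least 822-fold and at least 560-fold higher in these, against a floor of 3 counts over the 9 libraries together (adjusted p = 1.81e-09 for both CD4+ groups against the 3 Treg groups). Naive CD4+ replicate 1 set the first of these: without it the naive CD4+ mean was 7.64 CPM, at least 83.8-fold higher, the test over both CD4+ groups held (adjusted p = 2.22e-06), and the calls of SP/naive, SP/CD127hi and SP/CD127-/lo Tregs against naive CD4+ T cells were lost (0.286, 0.200 and 0.214). Those 3 calls and the 2 of SP/CD127hi and SP/CD127-/lo Tregs against tolerant CD4+ T cells were all lost with ComBat-Seq (0.0588 to 0.0911) and with the minimum of 10 counts in 3 libraries (0.0780 to 0.157). With DESeq2, 4 of the 5 were lost (0.0580 to 0.106), all but SP/CD127hi against naive CD4+ T cells. Leaving out 1 library of the Treg group compared also ended each of them (0.056 to 0.171), except that SP/CD127hi against naive CD4+ T cells held without SP/CD127hi replicate 2. Graft Tregs had 6.50, 0 and 46.8 CPM of Spp1, at least 195-fold above splenic Tregs (adjusted p = 4.20e-06). Without graft replicate 3 the mean was 3.25 CPM, at least 35.6-fold above, and the call held (adjusted p = 0.00265). Kidney epithelium, whose markers were present in the graft libraries, is known to make osteopontin as well, and its part in this value was not tested.

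Of the tetraspanins and co-receptors, Cd81 was higher in splenic Tregs than in CD4+ T cells by a log2 value of 2.74 (adjusted p = 0.000560), at 65.2 to 224 against 3.48 to 32.8 CPM, a call that was lost with ComBat-Seq (2.36, adjusted p = 0.194). Slamf1 was higher by 1.75 (adjusted p = 0.0440), a call that 11 of 15 libraries, left out singly, each ended (adjusted p up to 0.167), as did the likelihood ratio test (0.0701), the minimum of 10 counts in 3 libraries (0.0854) and ComBat-Seq (0.478). St3gal6, a sialyltransferase that takes part in making selectin ligands, was lower by -3.75 (adjusted p = 0.000339), at 0.252 to 19 against 23.1 to 75.7 CPM, and Msn, which encodes moesin, by -0.82 (adjusted p = 0.0162), which was lost without naive CD4+ replicate 1 (0.138) or tolerant CD4+ replicate 2 (0.106), with the likelihood ratio test (0.287) and with ComBat-Seq (0.494). DESeq2 gave St3gal6 no p-value. Within the spleen, Cd2, the receptor for CD48, was lower in SP/CD127hi than in SP/CD127-/lo Tregs by -1.89 (adjusted p = 0.0247), with 563, 409 and 146 against 2065, 903 and 1167 CPM, and the call was lost without SP/CD127-/lo replicate 1 (0.818) or SP/CD127hi replicate 3 (0.354), with DESeq2 (0.264), the likelihood ratio test (0.481), the minimum of 10 counts in 3 libraries (0.606) and ComBat-Seq (0.266), and without the 9 DLN libraries (0.193). T cell markers were lower in the same direction, at 4041 to 4776 CPM in SP/CD127hi and 7076 to 10589 CPM in SP/CD127-/lo Tregs, and dendritic cell markers higher (9.34 to 59.1 against 0.586 to 2.83 CPM), and their part in the Cd2 value was not tested. In the graft, Cd37 was higher than in the 3 splenic Treg groups by 1.37 (adjusted p = 0.0129), which was lost without graft replicate 1 (0.234) or 2 (0.0987) and with the likelihood ratio test (0.0805). Fermt1 was also called higher there, by 5.97 (adjusted p = 0.0095), but on 1, 2 and 81 counts, and the call was lost without graft replicate 3 (1.76, adjusted p = 0.960), with DESeq2 (0.430) and in 4 other settings (0.0594 to 0.0686). In the DLN, Nrros, which like Lrrc32 binds latent TGF-beta, had 55, 23 and 154 counts in DLN/CD127hi and 1, 3 and 0 counts in DLN/naive Tregs (adjusted p = 0.00039). Macrophages and monocytes, which are known to carry it, had marker sums of 602 to 891 CPM in the former and 2.80 to 429 CPM in the latter, B cell markers were apart as well (142 to 443 against 5.58 to 39.1 CPM), and the part of these cells was not tested. The call held without DLN/naive replicate 3 and was lost when the model was limited to the 6 libraries compared (adjusted p = 0.703) and with ComBat-Seq (0.289).

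Of the adhesion lists, 5 genes were called higher in naive CD4+ T cells than in naive CD45+CD4- cells, and none lower. The lists held 18, 19, 14, 12 and 20 genes. Over all genes 1.04% were called in this comparison and 0.379% were higher. Skap1 and Fyb encode adaptors that link the T cell receptor to integrin activation. Skap1 was at 534, 990 and 840 against 165, 288 and 180 CPM (log2 difference 1.90, adjusted p = 0.00117), and Fyb at 573, 484 and 563 against 194, 188 and 163 CPM (1.57, adjusted p = 0.0317). The Skap1 call was lost with the likelihood ratio test (0.0671) and ComBat-Seq (0.726), and the Fyb call with these (0.190 and 0.776), with RLE scaling (0.0585) and without any 1 of the 6 libraries (0.0630 to 0.166). Cd2 was higher by 2.45 (adjusted p = 2.39e-05), lost with the likelihood ratio test (0.0646), the minimum of 10 counts in 3 libraries (0.0548) and ComBat-Seq (0.378). Cd53 was higher by 1.10 (adjusted p = 0.00376) with overlap of the libraries, and 5 of 9 settings ended its call (0.0759 to 0.776), as did leaving out naive CD4+ replicate 1 or 3 or CD45+CD4- replicate 1 (0.0680 to 0.0854). Spp1, with 4 reads in the 3 naive CD45+CD4- libraries, was called as well (adjusted p = 0.0459), which was lost in 5 of 9 settings (0.0521 to 0.219) and without naive CD4+ replicate 1 (0.572) or any 1 of the CD45+CD4- libraries (0.147 to 0.253). T cell markers summed to 6564 to 8006 CPM in naive CD4+ T cells and 1487 to 2552 CPM in naive CD45+CD4- cells, and their part in these values was not tested.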

How the data were processed

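Bulk RNA-Seq of sorted cells was analysed in 33 libraries, 3 for each of 11 groups taken from the sample labels. The libraries were made with SMART-Seq v4 and Nextera XT and read in pairs of 75 bases. The authors used Trim Galore for trimming and STAR for alignment to mm10 (with EGFP) and deposited raw counts per gene for all 31054 features, without normalization. The submitters' notes give no versions. The methods name HTSeq for counting, while the files have the layout of STAR gene counts. The column over both strands was used. Reads without a gene, 37.0% to 69.2% of those in the files, were left out of library sizes.

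A gene was tested if 1 library or more reached 1 CPM (25347, all 10 members among them). TMM factors and a model with 1 mean per group over all 33 libraries were fitted with edgeR 4.0.16 in R 4.3.3 (quasi-likelihood test, two-sided), with Benjamini-Hochberg adjustment over all genes and a threshold of 0.05, for 20 comparisons and 3 interactions. The authors' methods name edgeR's likelihood ratio test, which was run as an alternative beside DESeq2 1.42.0 and others. Names, positions and exon lengths came from the GRCm38 annotation. A pathway gene was named if it was called, and 3 genes most like each member were named. Counting intervals are exact Poisson intervals. The script was tested on simulated data. Members, lists and tests were chosen with earlier results of these data known.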

Additional observations from a re-analysis of the deposited data

Results flagged for a closer look

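Cd53, which encodes a tetraspanin of leukocytes, was the 1 gene of the adhesion lists whose CD127-/lo effect differed between spleen and DLN in a test of the difference itself, by 1.46 on the log2 scale (edgeR adjusted p = 0.0378). Cd53 was at 4379, 2893 and 3973 CPM in SP/CD127-/lo and 1370.2, 1000.4 and 1798 CPM in SP/naive Tregs, and at 1438, 907 and 2168 CPM in DLN/CD127-/lo and 1569, 1067 and 1974 CPM in DLN/naive Tregs. The spleen libraries did not overlap and the DLN libraries did. The spleen difference alone was 1.43 (adjusted p = 0.000200), lost with the likelihood ratio test (0.725), the minimum of 10 counts in 3 libraries (0.327), ComBat-Seq (0.0510) and without the 9 DLN libraries (0.0504). T cell markers moved with it without overlap, at 7076 to 10589 CPM in SP/CD127-/lo and 3875 to 6671 CPM in SP/naive Tregs, while their sums overlapped in the DLN (3902 to 9589 and 6292 to 9058 CPM). Dendritic cell markers, at 0.586 to 2.83 CPM in SP/CD127-/lo and 18.4 to 37.6 CPM in SP/naive Tregs, were apart too, and the part of these markers was not tested. The call of the difference between spleen and DLN held in 3 of 8 settings and without 6 of 12 libraries. It was lost without SP/naive replicate 1 (adjusted p = 0.0523) or 2 (0.183), SP/CD127-/lo replicate 1 (0.157) or 3 (0.0980), DLN/naive replicate 3 (0.145) or DLN/CD127-/lo replicate 2 (0.307). Spleen and DLN also differ in the sequencer, and the DLN/CD127-/lo mice were male while 2 of the 3 DLN/naive libraries carried Xist, so tissue, sequencer and sex cannot be told apart.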

How the results depend on the processing

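All 13 calls of Itgae and Itgb8 kept their direction in 117 values under other settings, and 98 of these kept the call. Leaving out single libraries kept 81 of 96. Itgae kept 121 of 129 such calls and Itgb8 58 of 84. Of the 12 calls of Tregs against CD4+ T cells, 7 were left with at least 10 counts in at least 3 libraries and 5 with ComBat-Seq, and 8 to 12 without single libraries. The libraries behind these 12 calls shared a sequencer, so the ComBat-Seq count does not show dependence on it. In splenic Treg subsets, only the compared libraries gave 1 call (Itgae, CD127hi against CD127-/lo) in place of 0, and single libraries left 0. In tolerant against naive cells, no filter on low counts gave 1 call and the replicate block 1 call, both Itgb8 in CD45+CD4- cells, in place of 0, and single libraries gave 0 to 1. For CD4+ T cells against CD45+CD4- cells the count of 1 became 0 with only the compared libraries and 2 without the 9 DLN libraries, a setting chosen after the data were seen, and stayed at 1 without single libraries. Single libraries gave 0 to 2 calls in the DLN, 0 to 1 in the interactions and 0 in comparisons with graft Tregs.

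Replicate numbers are shared between groups. Over 165 pairs of libraries with the same number, the correlation of deviations from group means ran from -0.113 to 0.149 (median -0.000912). The median was -0.000234 over 330 pairs with other numbers, and 15 of 33 libraries were closest to one of their own number. These pairs also join naive with tolerant mice, so they cannot decide whether libraries with the same number shared mice within a condition. With the replicate block the Treg against CD4+ count was 13, and with only the compared libraries 17. Over all genes, the 464 calls of the 3 splenic Treg groups against both CD4+ groups became 745 with DESeq2, 954 with only the compared libraries and 337 with ComBat-Seq, the 365 of graft against splenic Tregs became 21 with the stricter filter and 139 with the replicate block, and the 241 of DLN/CD127hi against DLN/naive Tregs became 959 with DESeq2 and 10 with ComBat-Seq. The cause was not tested. The DLN libraries were the shallowest, and 3 counts there stand for up to 3.11 CPM.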
